A study of Mus musculus with 2 samples.

Results

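Malat1, Neat1, Kcnq1ot1, Meg3, H19 and Gas5 are long noncoding RNAs that act in the nucleus, arise from imprinted loci or host small nucleolar RNAs. They were taken by symbol from a table of the mouse colon, where they are 6 of 27874 symbols and 28 of 72178 transcript rows; rows were summed per symbol and also read singly. The table holds 2 libraries of colon lamina propria, the connective tissue layer below the gut epithelium, both from C57BL/6J mice: 1 Control and 1 K14/hyal1. The K14 of the label is the promoter of keratin 14, a gene of basal cells in the skin, and Hyal1 encodes a hyaluronidase, which breaks down the matrix sugar hyaluronan. No other allele or treatment is named for either library, and the sources used here do not give ages, sexes or how many animals went into each. The comparison asks how colon RNA differs between the genotypes. With 1 library per group no test was run, and every difference is one between these libraries, with the spread between animals unknown. Levels were read as CPM, reads per 1000000 of a library total that is larger than the table: the columns sum to 416441 in Control and 475982 in K14/hyal1. Brackets hold exact 95% intervals that cover counting error only.

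Long noncoding RNAs are transcribed like messenger RNAs but work as RNA. Malat1 sits in nuclear speckles, the stores of splicing factors, and Neat1 builds paraspeckles, nuclear bodies assembled around its long isoform. Kcnq1ot1, Meg3 and H19 are transcribed from 1 parental allele only: Kcnq1ot1 silences its neighbours from the paternal allele, while Meg3 and H19 are maternal transcripts that carry microRNAs, and H19 is high in fetal tissue and largely shut off after birth. Gas5 is spliced from a gene whose introns hold small nucleolar RNAs, and its spliced RNA is a target of translation-coupled decay.

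Malat1 and Neat1 lie next to each other on the minus strand of chromosome 19, and sequences at or near the ends of their transcripts are shown because the libraries were made by selecting poly(A) RNA. The full Malat1 transcript and the long Neat1 transcript are known to end, after cleavage, in a stretch of A written in the genome that folds with U-rich stretches upstream, whereas the short Neat1 transcript has an ordinary poly(A) signal. Capitals mark, in the first pair, the 3 stretches of at least 10 bases that both windows share and, in the last, the signal AATAAA; the sequences are those of GENCODE M21 transcripts on mm10, written along the transcript.
Malat1, near the end of the full transcript, chr19:5795982-5796091, minus strand: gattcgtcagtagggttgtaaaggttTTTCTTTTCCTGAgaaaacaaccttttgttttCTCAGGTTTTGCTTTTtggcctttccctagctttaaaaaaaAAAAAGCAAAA
Neat1, long transcript, chr19:5824708-5824817, minus strand: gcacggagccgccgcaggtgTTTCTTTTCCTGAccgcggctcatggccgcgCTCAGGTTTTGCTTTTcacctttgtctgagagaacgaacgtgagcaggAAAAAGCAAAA
Neat1, short transcript, chr19:5842307-5842366, minus strand: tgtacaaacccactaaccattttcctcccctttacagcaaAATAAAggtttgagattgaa
The Malat1 window ends 292 bases before the annotated end of its transcript, and both Neat1 windows end at theirs. The shared stretches were 13, 16 and 11 bases long and came in the same order in both windows. How much of each RNA was taken up through such a stretch, and how much through a tail, was not tested.

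The promoters of 4 members are in the RefSeq table of start sites (GRCm38.p6), each as a window of 300 bases, 250 before the start and 50 after it, and are shown because the 4 windows hold 1 common element near the start. Capitals mark matches, on either strand, to TGACGT (the core of the cAMP response element), CCAAT and TATAAA; the palindrome TGACGTCA contains TGACGT. Meg3 and Gas5 have 2 windows each, and the one with a match is given.
Malat1, chr19:5802623-5802922, minus strand: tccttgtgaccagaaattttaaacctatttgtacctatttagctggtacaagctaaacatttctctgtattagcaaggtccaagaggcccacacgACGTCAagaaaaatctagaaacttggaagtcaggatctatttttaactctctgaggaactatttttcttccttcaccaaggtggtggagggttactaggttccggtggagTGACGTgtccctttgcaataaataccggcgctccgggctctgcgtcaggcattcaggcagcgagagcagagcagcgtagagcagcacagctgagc
Kcnq1ot1, chr7:143296498-143296797, minus strand: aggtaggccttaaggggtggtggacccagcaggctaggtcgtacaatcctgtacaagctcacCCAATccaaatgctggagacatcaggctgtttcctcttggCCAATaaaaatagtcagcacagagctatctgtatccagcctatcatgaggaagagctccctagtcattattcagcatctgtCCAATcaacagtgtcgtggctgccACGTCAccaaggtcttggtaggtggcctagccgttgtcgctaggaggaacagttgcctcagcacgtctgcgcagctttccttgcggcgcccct
Meg3, chr12:109540746-109541045, plus strand: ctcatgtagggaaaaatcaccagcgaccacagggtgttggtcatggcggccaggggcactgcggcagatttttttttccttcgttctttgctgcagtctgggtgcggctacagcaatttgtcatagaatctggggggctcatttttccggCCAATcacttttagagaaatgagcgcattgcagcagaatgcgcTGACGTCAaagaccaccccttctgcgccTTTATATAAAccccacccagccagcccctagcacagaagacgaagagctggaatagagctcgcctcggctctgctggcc
Gas5, chr1:161034916-161035215, plus strand: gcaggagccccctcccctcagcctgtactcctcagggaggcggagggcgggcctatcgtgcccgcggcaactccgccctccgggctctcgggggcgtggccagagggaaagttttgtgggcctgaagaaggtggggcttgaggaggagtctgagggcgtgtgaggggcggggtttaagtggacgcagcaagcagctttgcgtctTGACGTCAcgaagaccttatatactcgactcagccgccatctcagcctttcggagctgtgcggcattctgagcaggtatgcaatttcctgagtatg

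All 4 genes had TGACGT between bases -60 and -35 of a start site. The match began at base -45 in Malat1, which has another on the opposite strand at -155 to -150, -43 in Kcnq1ot1, -57 in Meg3 and -46 in Gas5, and in Meg3 and Gas5 it was the full palindrome TGACGTCA. Over the RefSeq table, 7.51% of 32851 windows held TGACGT anywhere and 1.14% held it between those bases, which is 1.34% of 27025 genes with any of their windows counted, and 1.79% held TGACGTCA. CCAAT was present 3 times in the window of Kcnq1ot1 and 1 time in that of Meg3, against 37.4% of all windows with a match. TATAAA was found in the Meg3 window only, where a match on each strand overlapped between bases -29 and -20, against 13.6% of all windows. CACGTG, the element bound by clock activators, was in 0 of the members' windows and in 7.15% of all. The motifs and the interval were chosen after the sequences had been read, and a match is a description of letters, with binding not measured here.

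None of the 5 members with measurable levels differed by 2-fold between the libraries. Their ratios of K14/hyal1 to Control ran from 0.789 to 1.06: Malat1 and Neat1 were slightly higher in K14/hyal1 as deposited but lower under 4 other scalings, and Gas5, Meg3 and Kcnq1ot1 were lower under all of them. H19 was at or below 1 read in both. Of 13563 genes past the expression filter, a mean of 2.31 CPM, 3.75% reached 2-fold on the higher side and 1.54% on the lower side, 5.29% in all, on the log2(CPM + 1) scale, so a count of 0 of 5 members lies near that background. Of the genes past 2-fold, 70.9% were higher in K14/hyal1 as deposited, and between 49.4% and 53.7% were under 4 other scalings. The median log2 ratio of these genes was 0.21, a ratio of 1.16, and all 5 members lay below it. In bulk tissue, fewer cells that make an RNA and less of it per cell cannot be told apart.

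**Figure D1:**
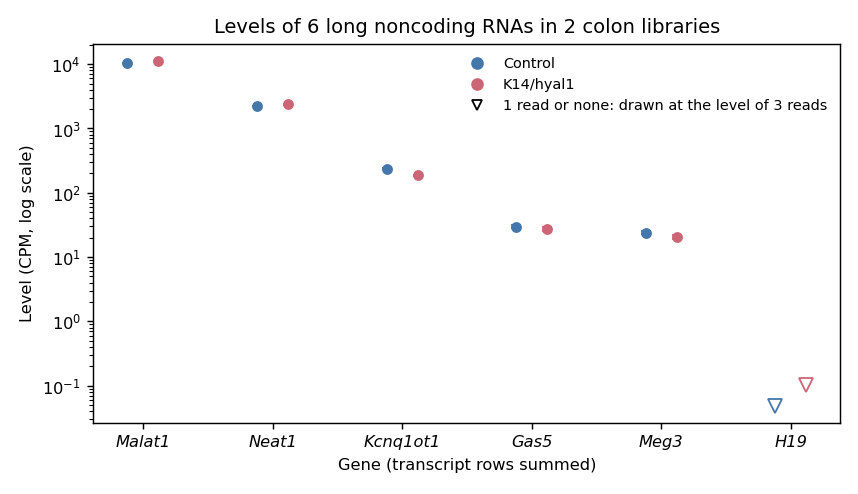
Level of each gene in CPM on a log axis, transcript rows summed, in the Control and K14/hyal1 libraries; bars are exact 95% counting intervals, mostly smaller than the points. The genes run from Malat1 at 10460 and 11091 CPM down to H19, whose open triangles stand at the level of 3 reads, 0.0491 and 0.103 CPM.

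Malat1, on chromosome 19 at 5795690-5802672, ranked 3 by mean level among all symbols in the table. It was at 10460 CPM in Control (10434 to 10486) against 11091 CPM in K14/hyal1 (11053 to 11129), from 639165 and 321861 estimated reads. The ratio was 1.06 (1.056 to 1.065), and 37.4% of genes past the filter had a ratio at or below it. Malat1 made up 2.51% of the Control column and 2.33% of the K14/hyal1 column, so relative to the reads in the table its level was lower in K14/hyal1. Its direction therefore rests on the scaling: the log2 ratio was 0.08 as deposited and -0.13 when the median gene was set near no difference.

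Neat1, at 5824708-5845478 on the same chromosome, ranked 11 by mean level. It was at 2261 CPM in Control (2249 to 2273) against 2372 CPM in K14/hyal1 (2355 to 2390), with a ratio of 1.05 (1.040 to 1.059). The ratio stood at percentile 36.0 of the genes past the filter, close to that of Malat1. Its log2 ratio, 0.07 as deposited, became -0.14 with the median gene near no difference, so its direction is not fixed by these data either. Malat1 exceeded Neat1 4.63-fold in Control and 4.67-fold in K14/hyal1 in CPM. Per kb of annotated exon it did so 13.8-fold and 13.9-fold, with Neat1 taken at 20.8 kb, the length of its long transcript. The proportion between these neighbours was thus nearly the same in both libraries.

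Kcnq1ot1 had the lowest ratio of the measurable members. The RNA is annotated as a single unspliced transcript of 93.1 kb on the minus strand of chromosome 7, at 143203458-143296549, inside Kcnq1 and antisense to it. It was at 236.9 CPM in Control (233.1 to 240.8) against 187.0 CPM in K14/hyal1 (182.1 to 192.0), with a ratio of 0.789 (0.765 to 0.814), from 14477 and 5427 estimated reads. Its log2 ratio of -0.34 stood at percentile 10.6 of the genes past the filter and was -0.55 with the median gene near no difference. Kcnq1, the potassium channel gene on the other strand, was at 20.1 CPM in Control against 18.7 CPM in K14/hyal1, with a ratio of 0.930 (0.838 to 1.03). The sources used here do not say whether the counting used strand, so unspliced Kcnq1 RNA could not be told apart from Kcnq1ot1.

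Meg3, on the plus strand of chromosome 12 at 109541001-109571726, was the lowest of the members past the filter in CPM. It was at 24.1 CPM in Control (22.9 to 25.4) against 20.7 CPM in K14/hyal1 (19.1 to 22.4), with a ratio of 0.858 (0.779 to 0.944). The counting intervals of the levels do not overlap, and the ratio was at percentile 16.0 of genes past the filter. Its log2 ratio of -0.21 was -0.41 with the median gene near no difference.

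H19, on chromosome 7 at 142575529-142578143, was nearly without reads. Control held 1 estimated read, 0.0164 CPM (0.000414 to 0.0912), and K14/hyal1 held 0 reads, for which the exact interval reaches 0.127 CPM and a floor of 3 reads stands at 0.103 CPM. No ratio is given, and a difference was not detectable at this depth. Igf2, the growth factor gene that shares enhancers with H19, was at 2.53 CPM and 2.38 CPM, a ratio of 0.938 (0.695 to 1.25).

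Gas5, on the plus strand of chromosome 1 at 161034422-161038539, was at 29.8 CPM in Control (28.5 to 31.2) against 27.3 CPM in K14/hyal1 (25.5 to 29.3). Those intervals overlap, and the ratio was 0.916 (0.842 to 0.997), at percentile 20.8 of genes past the filter. Its log2 ratio of -0.12 was -0.32 with the median gene near no difference. GENCODE M21 places 10 small nucleolar RNA entries inside Gas5, and 0 of them have a row in the table, so the hosted RNAs were not analysed here. The start of Gas5 overlaps Zbtb37 on the opposite strand, which was at 27.2 CPM in Control against 26.6 CPM in K14/hyal1.

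Per kb of annotated exon, the order of the members was the same in both libraries. Malat1 led at 1498 CPM per kb in Control and 1588 in K14/hyal1, followed by Neat1 at 108.9 and 114.2, Gas5 at 7.93 and 7.27, Kcnq1ot1 at 2.54 and 2.01, and Meg3 at 1.33 and 1.14 CPM per kb. Kcnq1ot1 had more CPM than Gas5 but less per kb, as its annotated exon is 93.1 kb long against 3.76 kb. Meg3, at percentile 18.5, and Kcnq1ot1, at percentile 39.8, were below the middle of genes past the filter by this measure, while Gas5 was at 78.5 and Neat1 at 98.9. Whether neighbours in this order differ beyond the spread between animals could not be judged from 1 library each.

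**Figure D2:**
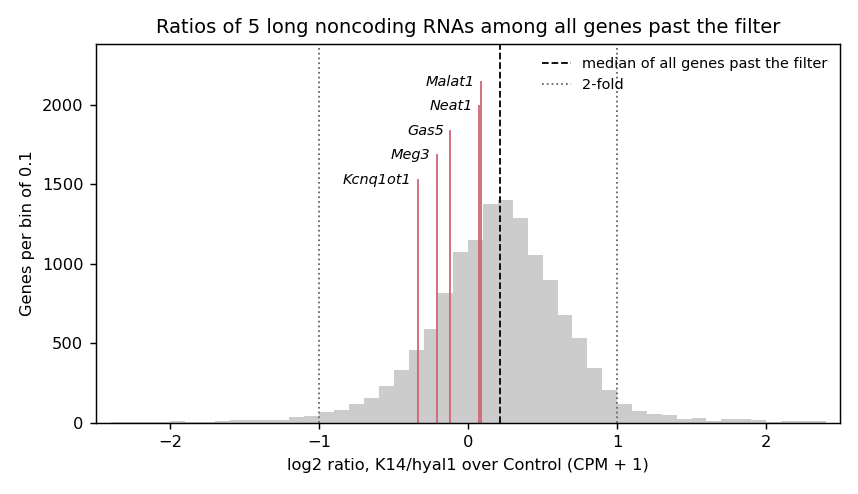
Grey bars count genes past the filter by log2 ratio of K14/hyal1 over Control (CPM + 1, bins of 0.1; values beyond 2.5 are not drawn), the dashed line is their median at 0.21 and dotted lines mark 2-fold. The 5 measurable members, in red, all lie left of the median and inside the 2-fold lines, from Kcnq1ot1 at -0.34 to Malat1 at 0.08, with Malat1 and Neat1 turning below 0 under 4 other scalings.

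The authors' deposited gene table lists 5 members and does not list H19. The authors' deposited table gives Malat1 a ratio of 1.06 with a p-value of 1.74e-05 and a false discovery rate of 0.0017. In the authors' deposited table, Kcnq1ot1 has a p-value of 0.0156 and a false discovery rate of 0.335, and the false discovery rates of Neat1, Meg3 and Gas5 are 0.945, 0.9998 and 0.9998. The sources used here do not name the model behind these values, and which libraries its spread came from is unknown. The member with the smallest deposited p-value is thus the one with the most reads, whereas Kcnq1ot1 had the ratio furthest from 1.

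Single transcript rows of the members did not all move with their gene. The rows carry no transcript ID, so they are called by their order of mean level within the gene. The split of reads between them is the authors' estimate, and the intervals do not cover the error of that split. Of the 28 rows, 17 had more than 3 estimated reads in both libraries; the ratio was above 1 in 8 and below 1 in 9, with the counting interval clear of 1 in 3 and 7 of them. These counts rest on the deposited scaling: with the median gene near no difference, 3 rows were above 1 and 14 below, with intervals clear of 1 in 0 and 10.

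Malat1 had 1 dominant row, higher in K14/hyal1 as deposited but below the median ratio of 1.16, and 2 minor rows that were lower. The first row was at 9846 CPM in Control against 10653 CPM in K14/hyal1, with a ratio of 1.082 (1.077 to 1.087). The second was at 338.9 and 275.1 CPM, a ratio of 0.812 (0.791 to 0.833), and the third at 275.2 and 163.0 CPM, a ratio of 0.592 (0.573 to 0.612). The third row thus made up 2.63% of Malat1 in Control (2.59 to 2.67) and 1.47% in K14/hyal1 (1.43 to 1.51), and the first row took up the difference, at 94.1% and 96.0%. GENCODE M21 annotates, beside the full Malat1 transcript, only shorter ones inside it.

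Neat1 was split between 2 rows that were both higher in K14/hyal1 as deposited; under the 4 other scalings the first was below 1 and the second had ratios between 0.997 and 1.03. The first was at 1748 CPM in Control against 1781 CPM in K14/hyal1, with a ratio of 1.02 (1.008 to 1.030), and the second at 512.8 and 591.6 CPM, a ratio of 1.15 (1.132 to 1.175). The second row held 22.7% of Neat1 in Control (22.5 to 22.9) and 24.9% in K14/hyal1 (24.6 to 25.3). The remaining row had 10 estimated reads in Control and 0 in K14/hyal1. The short and long Neat1 transcripts begin at nearly the same base, so reads from the shared part can belong to either, and which row is which is not given.

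Meg3 and Gas5 each had a leading row that was lower in K14/hyal1. The leading row of Meg3, of 9, was at 18.4 CPM in Control against 15.9 CPM in K14/hyal1, with a ratio of 0.865 (0.775 to 0.966), and held 76.5% and 77.1% of the gene. The second row, at 2.76 and 3.03 CPM, had a ratio of 1.10 whose interval spans 1 (0.838 to 1.43). The fourth row had the lowest ratio of the 17 rows, with 74 estimated reads in Control and 8 in K14/hyal1, a ratio of 0.238 (0.0948 to 0.472). The leading row of Gas5, of 8, was at 16.7 and 14.5 CPM, a ratio of 0.871 (0.776 to 0.977), and the second at 5.31 and 4.19 CPM, a ratio of 0.790 (0.638 to 0.979). The third Gas5 row, at 2.996 and 3.66 CPM, had a ratio of 1.22 with an interval that spans 1 (0.951 to 1.56).

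**Figure D3:**
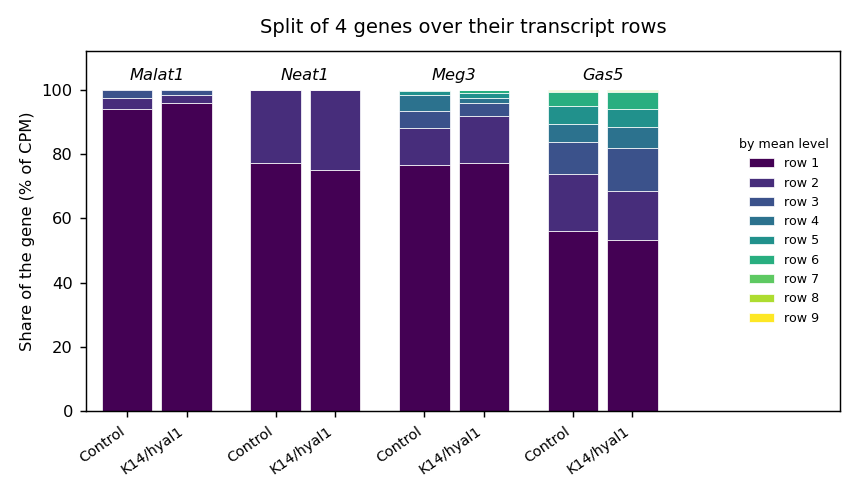
Share of each gene's CPM (%) in its transcript rows, ordered by mean level from the bottom, for Malat1, Neat1, Meg3 and Gas5 in each library; Kcnq1ot1 has 1 row and H19 too few reads. The leading row holds 94.1% and 96.0% of Malat1 in Control and K14/hyal1, and 56.0% and 53.2% of Gas5.

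Genes around Malat1 and Neat1 had ratios on both sides of the overall median. Of 8 neighbouring genes fixed as a list, 6 passed the filter, 0 were 2-fold different, and the median log2 ratio was 0.26. Ltbp3, which binds latent TGF-beta, was lowest, at 8.75 CPM in Control against 5.75 CPM in K14/hyal1, with a ratio of 0.658 (0.549 to 0.783). Fam89b was highest at a ratio of 1.56 (1.26 to 1.92), and Frmd8, the coding gene just beyond Neat1, was at 1.25 (1.10 to 1.41). Sssca1 and Ehbp1l1 had log2 ratios of 0.35 and 0.21. Slc25a45 and Tigd3 were below the filter.

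The imprinted domain of Kcnq1ot1 had no 2-fold difference among its 6 coding genes past the filter, with a median log2 ratio of 0.24. Cd81 and Nap1l4 were highest, at 1.39-fold each (1.31 to 1.47 and 1.26 to 1.53), and the transporter gene Slc22a18 was lowest at 0.862 (0.739 to 1.003). Tssc4 and Cars had log2 ratios of 0.33 and 0.14. Cdkn1c, the cell cycle inhibitor that Kcnq1ot1 silences on the paternal allele, was below the filter at 1.11 CPM in Control against 1.48 CPM in K14/hyal1. Phlda2, a placental growth regulator also below the filter, was at 0.376 and 1.999 CPM from 23 and 58 estimated reads, a ratio of 5.31 (3.22 to 9.02). Ascl2, Tspan32 and Trpm5 were below the filter too. Kcnq1ot1 lay below every one of the 6 genes past the filter.

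Meg3 and Rian, noncoding RNAs transcribed from the same maternal chromosome in the same direction, differed in opposite directions. Rian, which hosts small nucleolar RNAs, was at 5.82 CPM in Control against 10.9 CPM in K14/hyal1, with a ratio of 1.87 (1.60 to 2.17), at percentile 92.1 of genes past the filter. Meg3 was at 4.14 times the CPM of Rian in Control and at 1.90 times in K14/hyal1. The counting intervals of the Meg3 and Rian ratios do not overlap. Mirg, Rtl1, Dlk1 and Begain were below the filter, with Mirg at 0.655 and 0.844 CPM, and Wdr25 was at a ratio of 0.779 (0.584 to 1.03). Rian and Wdr25, the 2 of 6 genes past the filter, had a median log2 ratio of 0.27, and 0 were 2-fold different.

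Near H19, 4 of the 7 listed genes in the table passed the filter and 0 were 2-fold different, with a median log2 ratio of -0.04. Lsp1, a leukocyte protein gene, was highest at 1.61-fold (1.44 to 1.79) and Syt8 lowest at 0.921 (0.788 to 1.07). Mrpl23 was at 0.985 (0.809 to 1.21), and Tnnt3, Tnni2 and Th were below the filter. Near Gas5, 1 of 6 genes was 2-fold higher and 0 lower on the log2(CPM + 1) scale, with a median of 0.28, and by the plain ratio 1 was higher and 1, Serpinc1, lower. Cenpl, a centromere protein gene, was at 2.63 CPM in Control against 6.44 CPM in K14/hyal1, with a ratio of 2.45 (1.97 to 3.04), and Serpinc1, which encodes antithrombin, was lowest at 3.96 and 1.653 CPM, a ratio of 0.417 (0.2998 to 0.571). Zbtb37, Klhl20 and Rabgap1l had log2 ratios of -0.03, 0.24 and 0.32.

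Imprinted genes elsewhere in the genome were mostly near the overall median. Of 35 listed genes 32 were in the table and 21 passed the filter, with 1 at least 2-fold higher, 0 lower and a median log2 ratio of 0.25. The highest was Ddc, an amine-synthesis gene reported as imprinted in some tissues only, at 10.5 CPM in Control against 26.4 CPM in K14/hyal1, and the lowest was Cobl, an actin nucleator, at 75.6 and 42.7 CPM. Airn, a long antisense RNA that silences Igf2r as Kcnq1ot1 silences its domain, was at 8.05 and 6.34 CPM, with a log2 ratio of -0.30 at percentile 12.03. Airn was named after its values were seen.

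Other small nucleolar RNA host genes had a median log2 ratio of 0.27 over 18 genes past the filter, 1 of them 2-fold higher and 0 lower on the log2(CPM + 1) scale. By the plain ratio 2 were higher, the other being Snhg3 at 2.27 and 5.04 CPM, 2.22-fold (1.74 to 2.81). Rack1, which encodes a scaffold protein of the ribosome, was highest at 100.3 CPM in Control against 232.7 CPM in K14/hyal1, 2.32-fold (2.24 to 2.40). Snhg11 was lowest, at 6.74 and 4.31 CPM, a ratio of 0.639 (0.519 to 0.782). The log2 ratios of Snhg1 and Zfas1, chosen for mention with their values known, were 0.43 and 0.29, against -0.12 for Gas5. Those of Snhg14, Snhg15 and Snhg17, chosen likewise, were -0.30, -0.22 and -0.11. Of the 18 hosts, 10 were above the overall median and 8 at or below it, the side on which Gas5 lay.

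Proteins that work with Neat1 and Malat1 had 0 transcripts at 2-fold. Over the 17 paraspeckle genes past the filter the median log2 ratio was 0.18, from Sfpq, a core paraspeckle protein, at 88.9 CPM in Control against 73.6 CPM in K14/hyal1, to Nudt21, a cleavage factor subunit, at 10.5 and 18.9 CPM. The speckle and splicing list had a median of 0.08 over 21 genes, and 14 of the 21 were below the overall median. Srrm2, a scaffold of nuclear speckles, was lowest at 430.3 and 286.6 CPM, a ratio of 0.666 (0.650 to 0.683), and Srsf3, a splicing factor, highest at 51.5 and 74.2 CPM.

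Among other noncoding RNAs, 3 stood far from the rest. Of 40 listed, 20 passed the filter, with 2 at least 2-fold higher, 1 lower and a median log2 ratio of 0.14. The other 17 had log2 ratios between -0.72 and 0.50. Rpph1 and Rmrp, the short RNA components of RNase P and RNase MRP, which RNA polymerase III makes without a poly(A) tail, were at 331.1 and 307.6 CPM in Control and at 1520 and 851.8 CPM in K14/hyal1, 4.59-fold and 2.77-fold higher. Gm26917, a predicted gene that ranked 4 by mean level, was at 10376 CPM in Control against 2827 CPM in K14/hyal1, with a ratio of 0.272 (0.270 to 0.274). Which RNA the reads counted for Gm26917 came from was not tested. Tug1 and Firre, long nuclear RNAs chosen for mention with their values known, had log2 ratios of 0.07 and -0.26.

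**Figure D4:**
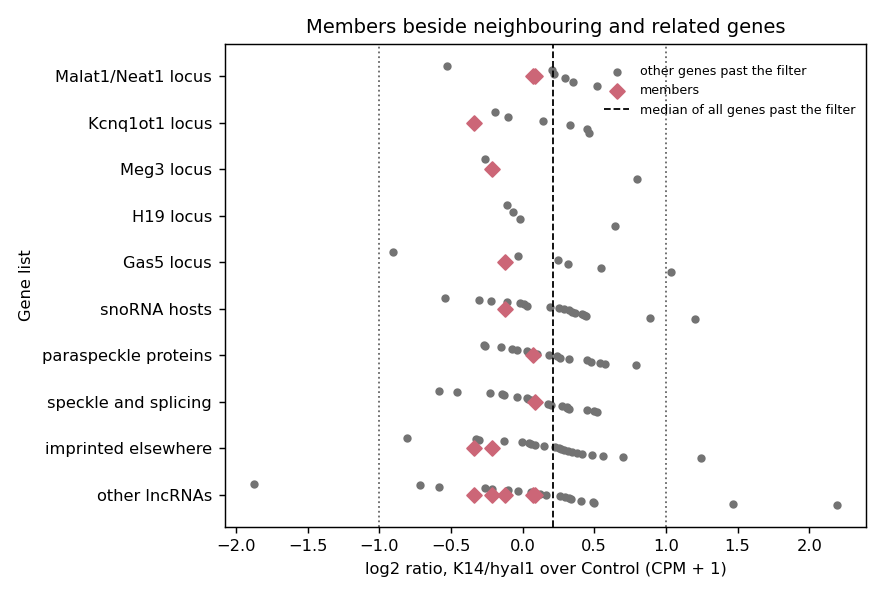
Log2 ratio of K14/hyal1 over Control (CPM + 1) for genes past the filter in 10 lists, as grey dots, with the related members as red diamonds; the dashed line is the median of all genes past the filter and dotted lines mark 2-fold. The members lie between -0.34 and 0.08 as deposited, with Malat1 and Neat1 below 0 under 4 other scalings, while the other noncoding RNAs run from -1.88 to 2.20 with 3 genes beyond 2-fold.

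Markers of several cell types differed between the libraries far more than the members. Fibroblast markers were at a summed 385 CPM in Control against 947 CPM in K14/hyal1, with 6 of 8 at least 2-fold higher. Col1a1, on the same list, went the other way, at 42.0 and 28.7 CPM, a ratio of 0.684 (0.632 to 0.740). Macrophage markers were at 53.5 and 201 CPM with 6 of 6 higher. Endothelial markers summed to 30.2 and 91.2 CPM, with 2 of 5 higher on the log2(CPM + 1) scale and 3 by the plain ratio. Those 2 were Lyve1 at 4.24-fold and Mmrn1 at 8.51-fold, and Cdh5 was lowest of the 5 at 1.47-fold. B and plasma cell markers summed to 17.3 and 110.6 CPM (2 of 6 higher), and adipocyte markers to 4.31 and 9.55 CPM (1 of 4). Epithelial markers summed to 3510 and 3748 CPM and smooth muscle markers to 2789 and 3247 CPM, each with 0 at 2-fold, so both libraries held epithelial and smooth muscle RNA beside that of the lamina propria. Neuron and glia markers summed to 27.3 and 26.2 CPM with 0 of the 3 past the filter at 2-fold on the log2(CPM + 1) scale, and 1, Vip, at 2.18-fold by the plain ratio; T cell and keratinocyte markers had 0 genes past the filter, and of the markers listed only Lep, in K14/hyal1, was at 0 reads. The part of this difference in the members' ratios was not tested.

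**Figure D5:**
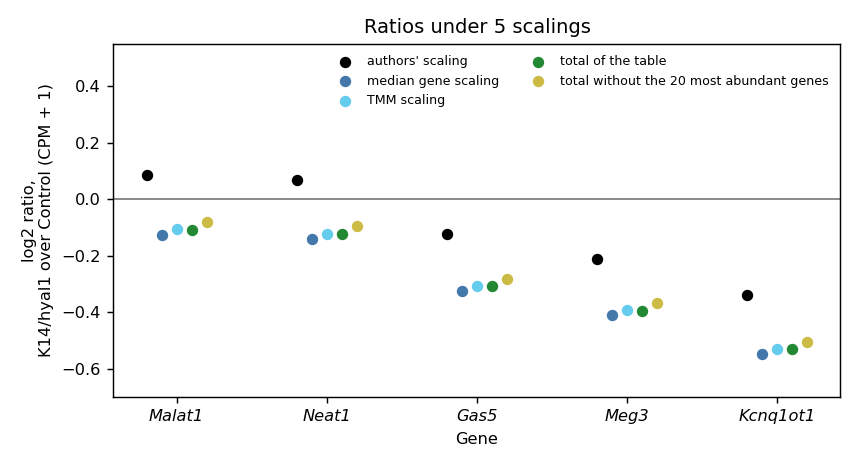
Log2 ratio of K14/hyal1 over Control (CPM + 1) for the 5 measurable members as deposited, in black, and under 4 other scalings. Malat1 and Neat1 change sign, from 0.08 and 0.07 to values between -0.14 and -0.081, and Gas5, Meg3 and Kcnq1ot1 stay below 0.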

How the data were processed

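Poly(A)-selected RNA (TruSeq Stranded mRNA kit, per the labels' protocols) was processed with Partek on mm10, per the submitters' processing notes; no aligner, counting rule or version is stated in the sources used here. The deposited normalized counts were read as CPM, a unit inferred from the values: low values are multiples of 1 step, 0.0164 in Control and 0.0345 in K14/hyal1. An offset of 0.0001 per deposited row was removed and rows were summed by symbol. Reads are estimates, CPM divided by the step: 81.6% and 82.9% of gene values up to 300 reads lay within 0.1 of a whole number, but 36.4% and 37.5% of row values did, so no count test was run. The table holds 25446345 and 13813022 estimated reads, of implied library totals of 61105356 and 29020470. The authors also deposited a gene table with a linear ratio, a signed fold score, p-values, least-squares mean CPM and a total signal; the last covers more libraries and was not used. Its p-values come from the authors' comparison, copied as given. A table headed as fold changes on the mm10 transcriptome was left out because that column does not hold fold changes, and a skin sheet was not used here.

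Ratios were put on a log2 scale after adding 1 CPM to both levels, so differences of low genes are understated. The filter was the median mean level of the 27125 symbols above 0. Level intervals were exact Poisson and ratio and share intervals exact Clopper-Pearson; without molecular identifiers, reads are not independent molecules. Coordinates and exon lengths are GENCODE M21, matched by symbol for all 6 members. The members and lists were chosen with earlier results of these data known. Named genes were the members, their rows, locus neighbours (some are not reported here), and in other lists the highest, the lowest and those past 2-fold; Airn, Snhg1, Snhg3, Zfas1, Tug1, Firre and Vip fall outside this rule and were chosen with their values known; 2 libraries give each gene 1 ratio, so no gene was named for a like pattern. Steps were tested on simulated data. Scripts ran in Python 3.11.15 with scipy 1.17.1 for intervals, pandas 2.3.3 and numpy 2.4.6 for tables and matplotlib 3.10.9 for figures.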

Additional observations from a re-analysis of the deposited data

How the results depend on the processing

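The count of members at 2-fold was 0 in each direction under every setting run, a threshold of 1.5 included. Scaling by the median gene multiplied K14/hyal1 by 0.864, the inverse of the median ratio of CPM + 1. The factor was applied before 1 CPM was added, so the median log2 ratio became 0.0213, near no difference. This gave log2 ratios of -0.13 for Malat1, -0.14 for Neat1, -0.55 for Kcnq1ot1, -0.41 for Meg3 and -0.32 for Gas5. TMM gave -0.11, -0.12, -0.53, -0.39 and -0.31, and the total of the table -0.11, -0.12, -0.53, -0.39 and -0.31. The total without the 20 most abundant genes gave -0.081, -0.10, -0.50, -0.37 and -0.28. Malat1 and Neat1 thus turned from higher to lower under all 4 scalings, and the other members kept their direction. With the largest transcript row alone, Malat1 was at 0.11 and Neat1 at 0.027, and pseudocounts of 0.1 and 10 CPM and the authors' gene table left each member within its counting interval. Of all genes past the filter, 509 were 2-fold higher and 209 lower; these counts were 2401 and 663 at 1.5-fold, 126 and 76 with a pseudocount of 10, 320 and 328 by the median gene, 329 and 311 by TMM, 328 and 312 by the table total, and 268 were higher with a filter of 10 CPM. The higher share of calls was 70.9% as deposited and 49.4% by the median gene. Over 16 lists, 51 recomputed medians moved by less and 29 by more than the standard error over the list's genes. Chosen after seeing the data, the count of member rows above 1, 8 as deposited, was 3 by the median gene and 4 by the other scalings. No paired analysis was possible because each group has 1 library, and no library could be left out. Depth limits H19, and the spread between animals is unknown.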
